A study of Rattus norvegicus with 6 samples.

Results

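The JAK-STAT core was read as 10 genes chosen by symbol: the STAT5 paralogs *Stat5b* and *Stat5a*, the STATs *Stat3* and *Stat6*, the kinases *Jak1* and *Jak2*, the feedback inhibitors *Socs2*, *Socs3* and *Cish*, and the repressor *Bcl6*. All 10 were found among the 17315 rows of the expression tables, and all 10 had a mean of at least 1 TPM (a share of all transcripts, corrected for length and scaled to a fixed sum of 1000000), the filter for testing that 10331 genes passed. The samples were adult rat hippocampal neural stem cells (NSCs) of the line HCN, which the study describes as isolated from rats and cloned, so that all samples come from 1 cloned line. Cells in the siControl group received a Stealth RNAi control duplex and cells in the siDerl1 group 1 Stealth RNAi duplex against *Derl1*, the gene for the endoplasmic reticulum protein Derlin-1. Both groups were then held for 2 days with BMP4, which brings these cells toward quiescence. Each group held 3 samples with the numbers 1, 2 and 3, and the comparison asks which transcripts differ when Derlin-1 is reduced during entry into quiescence.

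A cytokine or hormone that binds its receptor brings together the Janus kinases (JAKs) held on the receptor tails. The kinases phosphorylate the receptor and then a STAT protein, which pairs with another STAT, enters the nucleus and binds DNA. CIS and the SOCS proteins, whose genes are switched on by STATs, block the receptor or kinase and so close a negative feedback loop. In the brain, signals through the receptor subunit gp130 and STAT3 are known for promoting astrocyte differentiation, and STAT5 for transmitting growth hormone and prolactin signals.

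Before the members, the samples were compared with their labels. *Derl1* was lower in every siDerl1 sample, at 44.9, 70.8 and 74.0 TPM in samples 1, 2 and 3, than in the siControl samples, which lay between 122 and 132 TPM. Defining NSC genes were present, with *Sox2* between 445 and 565 TPM, and *Nes* at 137, 125 and 113 TPM in siControl and at 111, 101 and 99.4 TPM in siDerl1 samples, below without overlap. Of the 13 NSC markers read, *Prom1* was listed at 0, and of the 12 tested 8 had a higher and 4 a lower fitted value in siDerl1. Against the direction of *Nes*, *Gfap* was called higher by the limits given further on. *Hes5* was called higher only with the sample number as a block (adjusted p = 0.231 from limma). The microglia markers *Cx3cr1* and *Trem2* were listed at 0 in all samples, and the 8 microglia markers summed to between 3.73 and 5.72 TPM, most of it *P2ry12*. The 6 endothelial and mural markers summed to at most 0.820 TPM in siControl and 0.710 TPM in siDerl1 samples, and the 7 neuron markers to between 129 and 171 TPM. Of the oligodendrocyte markers, *Cnp* lay between 565 and 655 TPM and *Mbp* between 245 and 340 TPM, with overlapping groups, while *Mog* and *Mobp* of mature oligodendrocytes were listed at 0. For each of the NSC, microglia, endothelial and neuron lists the range of sums in siDerl1 overlapped that in siControl samples, but *Vim*, between 3008 and 5044 TPM, dominates the NSC sum and single markers separated the groups. Of the neuron markers, *Dcx* was called lower by the limits given further on, at 8.83, 10.95 and 9.57 TPM in siControl and at 6.38, 7.10 and 7.63 TPM in siDerl1 samples, while *Tubb3* was above without overlap, at 58.8, 74.9 and 70.4 TPM against 83.2, 76.3 and 76.3 TPM. The part of these markers in the results was not tested. Both samples numbered 1 stood apart from the other 4 across many genes. They lay below the other 4 for 17.0% of the genes tested and above them for 15.7%.

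The 10 genes spanned more than 2 orders of magnitude on the TPM scale. Averaged over the 6 samples, *Socs2* was the most abundant at 318 TPM, followed by *Stat3* at 151, *Jak1* at 70.5, *Jak2* at 45.1, *Stat5b* at 31.0, *Socs3* at 26.0, *Bcl6* at 12.4, *Stat5a* at 10.1, *Cish* at 5.26 and *Stat6* at 1.01 TPM. The ranges of *Stat5b* and *Socs3* over the 6 samples overlapped, as did those of *Bcl6* and *Stat5a*, so their places in this order are not settled. Every other neighbouring pair in the order was separated in all 6 samples.

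**Figure D1:**
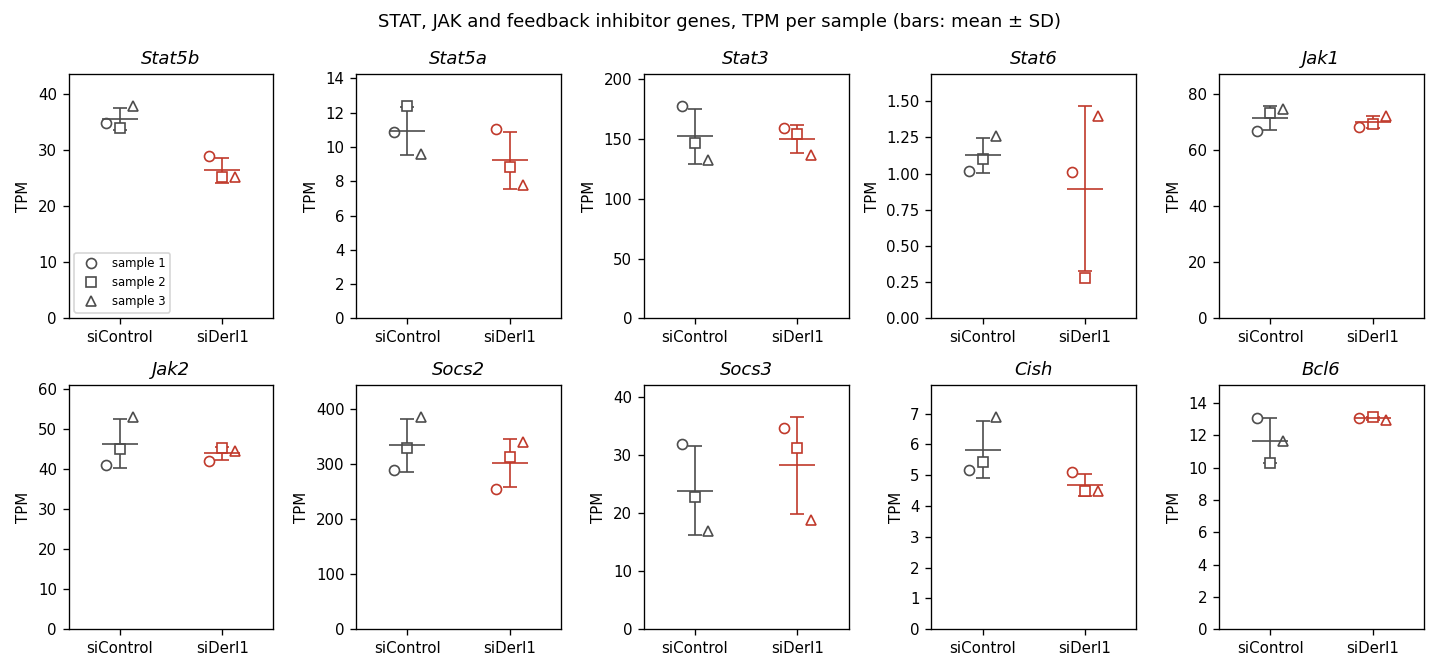
Expression of the 10 genes in TPM (vertical axes, each from 0) in siControl (grey) and siDerl1 (red) NSCs, with 1 symbol for each sample and horizontal lines for the mean ± SD (n = 3). The siDerl1 samples lie below all siControl samples for *Stat5b* and *Cish*, whereas the groups overlap for the other 8 genes.

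*Stat5b* (NM_022380), the STAT that growth hormone signalling chiefly uses, had the smallest p of the 10. It was at 34.8, 34.0 and 37.9 TPM in siControl samples 1, 2 and 3 and at 28.9, 25.1 and 25.2 TPM in the siDerl1 samples. The highest siDerl1 value, in sample 1, was thus below the lowest siControl value. The means were 35.6 ± 2.02 and 26.4 ± 2.17 TPM (SD, n = 3 each), a ratio of 0.742. On the log2(TPM + 1) scale, which understates the change of low genes, the difference was −0.42 (standard error 0.09, 95% interval −0.64 to −0.20). An exact permutation test over the samples gave a two-sided p of 0.1, the smallest that 3 samples against 3 can give. Any gene whose groups do not overlap reaches this p, and 13.6% of all genes tested had no overlap in either direction.

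The study's methods call a gene lower at a fold change under 0.8 and higher at one over 1.5. With these limits on the ratio of mean TPM and an unadjusted p under 0.05 from limma, *Stat5b* was called lower, and it was the only one of the 10 called. Over all genes tested, 2.21% were called, 1.49% as lower and 0.716% as higher. After Benjamini-Hochberg adjustment over all genes no gene had a p under 0.05 in limma, against 692 genes (6.70%) without adjustment, and the adjusted p of *Stat5b* was 0.692. With the sample number as a block *Stat5b* was again the only member called, as lower, where 4.23% of all genes were called, 2.57% as lower and 1.66% as higher. Only 42 of the 10331 genes had a smaller p than *Stat5b*, and 1.79% had a lower log2 difference. The study took up *Stat5b* from the transcription factors that differed in its RNA-seq of these samples. Its call and its place among all genes are not independent of that choice and are no separate support. In bulk RNA, fewer cells expressing *Stat5b* and less of its RNA in each cell cannot be told apart.

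The size of the difference varied with the sample number. *Stat5b* was lower in siDerl1 than in siControl by 0.26 on the log2 scale in pair 1, by 0.42 in pair 2 and by 0.57 in pair 3 (pairs are samples of the same number). *Derl1* itself was lower by 1.42, 0.89 and 0.78 in the same pairs. The pair with the greatest loss of *Derl1* transcript therefore had the smallest difference in *Stat5b*, a description of 3 pairs that was not tested. In samples 2 and 3 alone, the difference in *Stat5b* was −0.50 (adjusted p = 0.165 from limma).

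*Stat5a* (NM_017064), the paralog that is most studied in prolactin signalling, was the less abundant of the pair, with *Stat5b* at 3.30 ± 0.606 times its level in siControl and 2.90 ± 0.308 times in siDerl1 samples (SD, n = 3 each). It was at 10.9, 12.4 and 9.59 TPM in the siControl samples and at 11.1, 8.82 and 7.80 TPM in the siDerl1 samples. The groups overlapped, because siDerl1 sample 1 lay above siControl samples 1 and 3. The log2 difference was −0.23 with a 95% interval from −0.62 to 0.16 (adjusted p = 0.832 from limma), an interval that holds 0 as well as the value seen for *Stat5b*. With 1 sample left out it ranged from −0.36, without siDerl1 sample 1, to −0.13, without siDerl1 sample 3.

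Added together, the STAT5 genes gave 45.7, 46.4 and 47.5 TPM in siControl samples 1 to 3 and 40.0, 34.0 and 33.0 TPM in siDerl1 samples 1 to 3. The sums did not overlap, and their means were 46.5 ± 0.876 and 35.6 ± 3.79 TPM (SD, n = 3 each). The siControl samples agreed closely with each other in this sum, while the siDerl1 samples split into sample 1 and the other 2. *Stat5b* made up 76.4 ± 3.24% of STAT5 transcripts in siControl and 74.2 ± 2.01% in siDerl1 samples (SD, n = 3 each), with overlapping values. Reads from stretches that the paralogs share may have been divided between them by RSEM, the authors' program for estimating expression, so the split is less certain than the sum.

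*Stat3* (NM_012747), the STAT used by gp130 cytokines, was the most abundant STAT of the 4. It was at 178, 147 and 133 TPM in the siControl samples and at 159, 154 and 137 TPM in the siDerl1 samples. The groups overlapped fully, and the log2 difference was −0.02 (95% interval −0.29 to 0.25, adjusted p = 0.988 from limma). Its sign was not stable: without siControl sample 1 the difference was 0.10. Samples of both groups followed the sample number instead, since both samples numbered 1 lay above the other 4.

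*Stat6* (NM_001044250), the STAT of interleukin-4 and interleukin-13 signalling, was barely above the filter. It was at 1.02, 1.10 and 1.26 TPM in siControl samples 1, 2 and 3, and at 1.01, 0.280 and 1.40 TPM in the siDerl1 samples. The low mean of the siDerl1 group came from sample 2, and without that sample the log2 difference was 0.05 instead of −0.21. The size depended on the pseudocount, and with 0.1 in place of 1 the difference was −0.51. *Stat3* held 76.0 ± 3.02% of the summed TPM of the 4 STATs in siControl and 80.4 ± 1.26% in siDerl1 samples (SD, n = 3 each), and *Stat5b* held 18.0 ± 2.69% and 14.2 ± 0.741%. Neither share overlapped between the groups.

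The kinases differed little. *Jak1* (NM_053466), which works with gp130 and interferon receptors, was at 66.6, 73.0 and 74.5 TPM in siControl and at 68.0, 69.1 and 72.1 TPM in siDerl1 samples. *Jak2* (NM_031514), the kinase of the growth hormone, prolactin and erythropoietin receptors, was at 41.0, 44.9 and 53.0 TPM in siControl and at 42.0, 45.2 and 44.5 TPM in siDerl1 samples. Both genes had overlapping groups, and for both the samples numbered 1 lay below the other 4. The log2 differences were −0.03 for *Jak1* (95% interval −0.20 to 0.14) and −0.07 for *Jak2* (95% interval −0.32 to 0.18). The *Jak1* interval is the narrowest of the 10 and leaves room for a difference of at most 0.20 in either direction. Without siControl sample 3, the highest for both, the differences changed sign, to 0.00 for *Jak1* and 0.03 for *Jak2*.

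**Figure D2:**
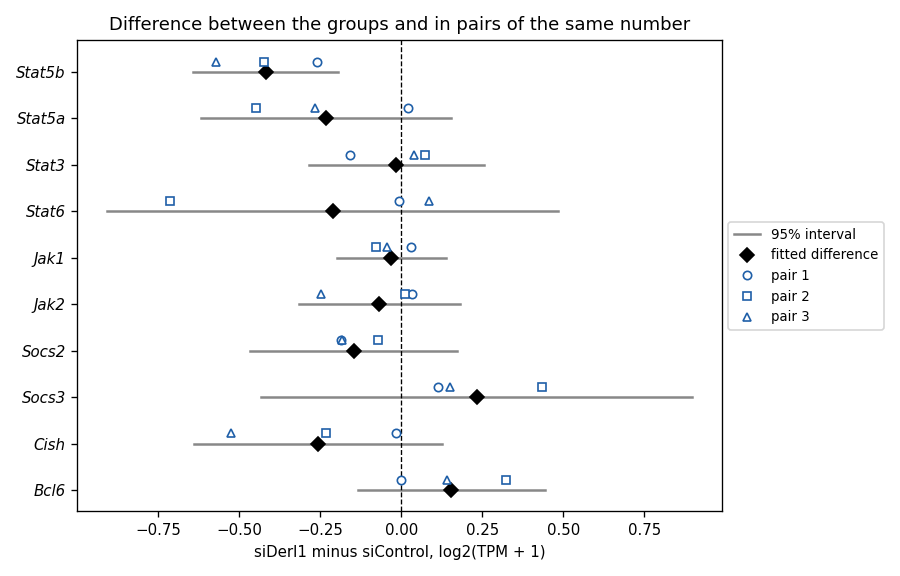
Difference between siDerl1 and siControl NSCs on the log2(TPM + 1) scale (horizontal axis) for each of the 10 genes, with the fitted difference (diamond), its 95% interval from limma (line) and the differences in the pairs of samples 1, 2 and 3 (open symbols). The interval of *Stat5b*, from −0.64 to −0.20, is the only one that does not reach 0.

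Among the feedback inhibitors, *Socs2* (NM_058208), which restrains growth hormone signalling, was the most abundant member. It was at 289, 328 and 385 TPM in siControl and at 254, 311 and 339 TPM in siDerl1 samples. Each siDerl1 sample was below its siControl partner, but the groups overlapped widely, and the samples numbered 1 were the lowest in each group. The log2 difference was −0.15 (95% interval −0.47 to 0.17, adjusted p = 0.885 from limma), and with the sample number as a block, which compares samples within pairs, the standard error went from 0.14 to 0.05 while the adjusted p was 0.197. With 1 sample left out the difference ranged from −0.25, without siControl sample 1, to −0.03, without siDerl1 sample 1. *Socs3* (NM_053565), the inhibitor of gp130 and STAT3 signalling, went the other way, at 31.9, 22.8 and 16.8 TPM in siControl and at 34.7, 31.1 and 18.8 TPM in siDerl1 samples. All 3 pairs were higher in siDerl1, the groups overlapped, and the log2 difference was 0.23 (95% interval −0.43 to 0.90, adjusted p = 0.927 from limma). That value too rested on single samples, at 0.02 without siControl sample 3 and 0.49 without siDerl1 sample 3.

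*Cish* (NM_031804) encodes CIS, an inhibitor that occupies STAT5 docking sites on receptors and is a textbook STAT5 target. Its promoter is shown because the letters of the STAT binding motif are crowded there. The motif TTCNNNGAA reads the same on both strands, and it was searched in the RefSeq promoter windows of the rat assembly GRCr8, each from 250 bases before to 50 bases after a transcription start. The *Cish* window held 4 matches, whose first bases lie at −241, −230, −136 and −119 relative to the start. In the stretches below, on the plus strand at chr8:116850723-116850752 and chr8:116850831-116850860, the capitals mark the matches.
Cish, first pair: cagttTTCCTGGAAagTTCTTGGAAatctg
Cish, second pair: ggTTCTAGGAAgatgcggcTTCCGGGAAgg
The first 2 matches begin 11 bases apart and the last 2 begin 17 bases apart. Of the 33469 windows of that length in the table, 8.87% held at least 1 match and 2 windows held 4 or more. Windows were found for 8 of the 10 genes, and apart from *Cish* none of those 8 held the motif. The longer form with 4 bases between TTC and GAA, which STAT6 prefers, was in none of the 8 and in 7.28% of all windows. A match is a string of letters and does not show binding.

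*Cish* was at 5.16, 5.43 and 6.89 TPM in siControl and at 5.09, 4.48 and 4.49 TPM in siDerl1 samples. The groups did not overlap, although siControl sample 1 and siDerl1 sample 1 were nearly equal. The means were 5.83 ± 0.931 and 4.69 ± 0.349 TPM (SD, n = 3 each), a ratio of 0.804 that lies just outside the limit of 0.8. The exact permutation test gave a two-sided p of 0.1, again the smallest possible and the one that any gene without overlap reaches. The log2 difference was −0.26 (95% interval −0.64 to 0.13, adjusted p = 0.809 from limma), and it was −0.02, −0.23 and −0.52 in pairs 1, 2 and 3. The pairs thus came in the same order as those of *Stat5b*. How many of all genes share this order was not counted. Without siControl sample 3 the difference was −0.15, and without siControl sample 1 it was −0.33.

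*Bcl6* (NM_001107084) encodes a repressor whose DNA sequences resemble those of the STATs. It was at 13.1, 10.3 and 11.7 TPM in siControl and at 13.1, 13.1 and 13.0 TPM in siDerl1 samples. The siDerl1 samples were almost equal, with an SD of 0.0862 TPM, and overlapped with siControl sample 1. The log2 difference was 0.15 (95% interval −0.13 to 0.44, adjusted p = 0.858 from limma), at 0.07 without siControl sample 2 and 0.23 without siControl sample 1.

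Across the 10 genes, 8 had a lower and 2 a higher fitted value in siDerl1 NSCs, with a median log2 difference of −0.11. Over all genes tested 5657 of 10331 were lower, with a median of −0.02. The siDerl1 samples were below all siControl samples without overlap for 2 of the 10, *Stat5b* and *Cish*, against 8.52% of all genes, and above them for 0 of the 10, against 5.09%, so that 2 of the 10 had no overlap in either direction, against 13.6%. All pairs were lower for 3 of the 10, *Stat5b*, *Socs2* and *Cish*, against 22.1% of all genes, and all were higher for *Socs3* alone, against 15.8%. Both samples numbered 1 were separated from the other 4 for 5 of the 10: above them for *Stat3* and *Socs3*, against 15.7% of all genes, and below them for *Jak1*, *Jak2* and *Socs2*, against 17.0%. The interferon-induced list, of which 19 genes were measured, moved with the same numbers, at a summed 210 and 193 TPM in siControl and siDerl1 samples 1, 1172 and 2080 TPM in samples 2, and 1185 and 1968 TPM in samples 3. The sum was thus higher in siDerl1 within pairs 2 and 3 and lower in pair 1, where 9 of the 19 genes were higher. All 19 genes had a higher fitted value and 0 passed the limits, whereas with the block 8 were called higher, against 1.66% of all genes, and 5 had an adjusted p under 0.05 from limma, against 0.552%. Over all genes, the count with an adjusted p under 0.05 was 0 when the block was fitted without a trend and 2 when it was fitted unfiltered. Its part in these levels was not tested.

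**Figure D3:**
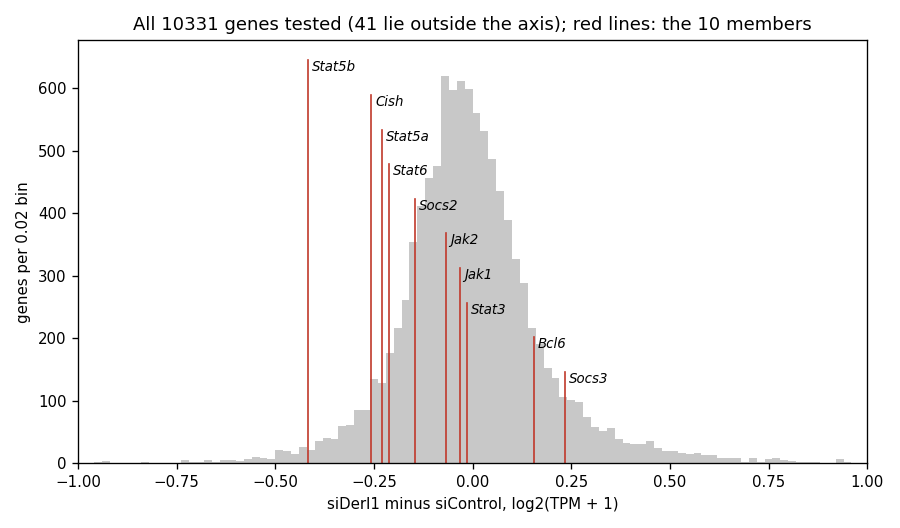
Histogram of the difference between siDerl1 and siControl NSCs on the log2(TPM + 1) scale (horizontal axis) over the 10331 genes tested, as genes per bin of 0.02 (vertical axis), with a red line at each of the 10 genes. *Stat5b* lies in the left tail of the distribution at −0.42, and 41 genes lie outside the axis.

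The other STATs and JAK family kinases were next read. *Stat2*, a STAT of type I interferon signalling, was at 67.2, 150 and 144 TPM in siControl and at 61.1, 217 and 178 TPM in siDerl1 samples. It was low in the samples numbered 1 and higher in siDerl1 within pairs 2 and 3, in step with the interferon-induced list. Its log2 difference was 0.23 (adjusted p = 0.953 from limma), and it changed sign without siControl sample 1, to −0.14, and without siDerl1 sample 2, to −0.12. None of the 4 genes tested in this list passed the limits, *Tyk2* and *Jak3* included, and *Stat4* was listed at 0.

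The cytokine ligands tested had a median log2 difference of 0.60, with 3 higher and 1 lower, against −0.02 over all genes. Of 24 genes listed, 23 were in the tables, 13 of them at 0 in all samples, and the 4 that passed the filter all had an unadjusted p under 0.05 from limma. Those that passed the limits, *Cntf*, *Lif* and *Ctf1*, are cytokines of the gp130 family. *Cntf*, ciliary neurotrophic factor, was at 6.78, 4.09 and 4.32 TPM in siControl and at 9.41, 8.09 and 9.48 TPM in siDerl1 samples. It was called higher by the limits and its groups did not overlap, with a log2 difference of 0.75 (standard error 0.20); limma gave an adjusted p of 0.704. *Lif*, leukemia inhibitory factor, was also called higher, at 3.68, 1.21 and 1.48 TPM in siControl and at 3.22, 5.44 and 4.63 TPM in siDerl1 samples. The groups overlapped because siControl sample 1 lay above siDerl1 sample 1, so that pair 1 had the opposite direction.

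*Ctf1*, cardiotrophin 1, was called lower, at 5.70, 9.18 and 7.48 TPM in siControl and between 4.78 and 5.18 TPM in the 3 siDerl1 samples, with no overlap and a log2 difference of −0.48 (adjusted p = 0.712 from limma). In all, 3 of the 4 ligands tested passed the limits, 2 higher and 1 lower, against 2.21% of all genes. The calls for *Lif* and *Ctf1* were not firm: without siControl sample 2, siControl sample 3, siDerl1 sample 2 or siDerl1 sample 3 neither passed, which left *Cntf* alone, and without siDerl1 sample 1 *Ctf1* did not pass. In samples 2 and 3 alone all 3 passed. The 4 genes were chosen by a list and a filter that does not use the groups, but the list was written with other results of these data known.

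The receptors for these ligands did not pass the limits. *Cntfr*, the receptor that binds CNTF, was the most abundant cytokine receptor of the list at 115 ± 16.2 TPM in siControl and 117 ± 20.1 TPM in siDerl1 samples (SD, n = 3 each). *Il6st*, which encodes gp130, was at 75.1 ± 4.44 and 72.6 ± 8.97 TPM, and *Lifr* at 9.13 ± 2.91 and 8.43 ± 1.25 TPM (SD, n = 3 each). Their log2 differences were 0.02, −0.05 and −0.07, with 95% intervals from −0.32 to 0.36 for *Cntfr*, from −0.29 to 0.18 for *Il6st* and from −0.64 to 0.51 for *Lifr*. Of the receptors that use STAT5, *Ghr* was at 6.94 ± 2.02 and 5.95 ± 0.691 TPM (SD, n = 3 each), while *Prlr* and *Csf2rb* were listed at 0. *Ghr* was not the most abundant such chain of the list. *Crlf2* lay between 34.7 and 39.5 TPM and *Il3ra* between 25.1 and 33.7 TPM, with overlapping groups. None of the 13 receptors tested passed the limits. With the sample number as a block *Pdgfra*, a growth factor receptor that also activates STATs, was called lower (adjusted p = 0.113 from limma), against 2.57% of all genes. It was at 69.8, 43.9 and 37.2 TPM in siControl and at 42.5, 37.9 and 28.8 TPM in siDerl1 samples, lower in each pair with overlapping groups. The log2 difference was −0.42, at −0.16 without siControl sample 1 and −0.61 without siControl sample 3. In samples 2 and 3 alone it was −0.28, and *Pdgfra* was not called.

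None of the 21 other inhibitors, phosphatases and adaptors tested passed the limits, and their median log2 difference was 0.01. The most abundant were *Ptpn11*, the phosphatase SHP2, at 205 ± 1.70 and 207 ± 19.3 TPM, and the adaptor *Grb2*, at 182 ± 1.08 and 175 ± 2.96 TPM (SD, n = 3 each). *Sh2b1*, an adaptor of JAK2, had a log2 difference of −0.06 with overlapping groups. For *Grb2* the groups did not overlap although the log2 difference was only −0.06. *Socs1*, a further feedback inhibitor and also a STAT5 target, was at 2.75, 5.01 and 6.55 TPM in siControl and at 1.61, 4.47 and 7.04 TPM in siDerl1 samples, with overlapping groups.

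**Figure D4:**
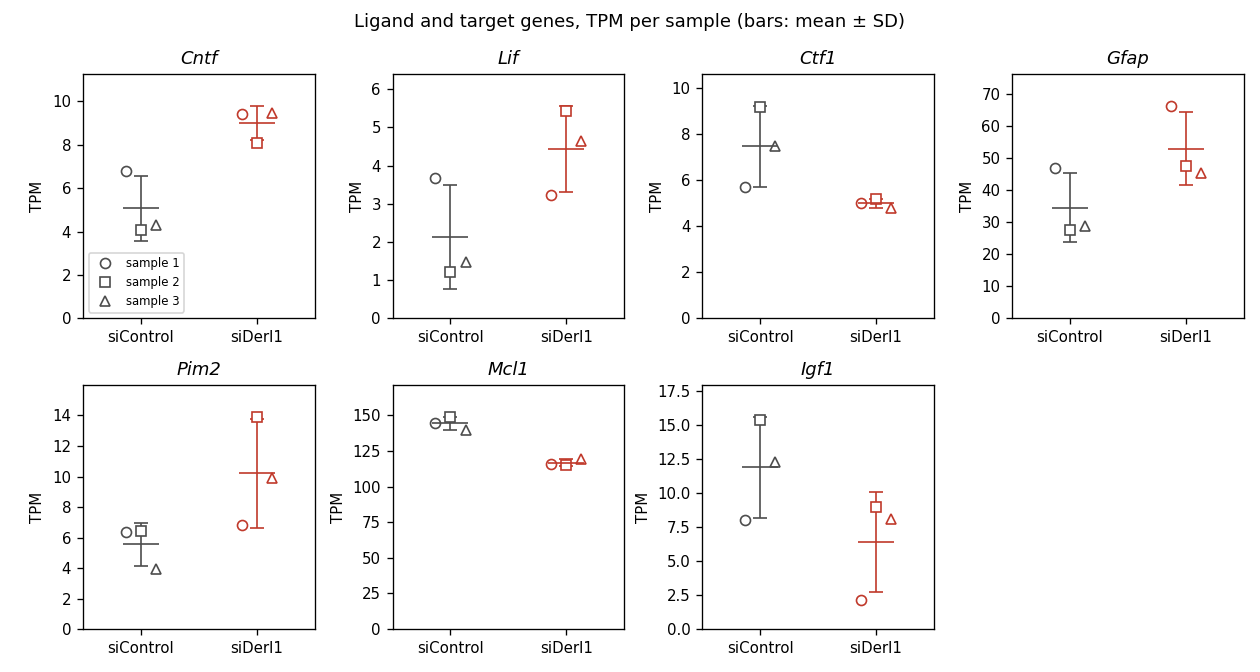
Expression in TPM (vertical axes, each from 0) of the ligand genes *Cntf*, *Lif* and *Ctf1* and of the target genes *Gfap*, *Pim2*, *Mcl1* and *Igf1* in siControl (grey) and siDerl1 (red) NSCs, with 1 symbol for each sample and lines for the mean ± SD (n = 3). The groups are separate for *Cntf*, *Ctf1*, *Pim2* and *Mcl1*, and each pair differs in the same direction for *Gfap* and *Igf1*.

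Of the 17 STAT5 target genes tested, 1 passed the limits, against 2.21% of all genes, and the list had 9 higher and 8 lower genes with a median log2 difference of 0.01. The gene was *Pim2*, a survival kinase, which was higher in siDerl1 NSCs. It was at 6.35, 6.40 and 3.91 TPM in siControl and at 6.82, 13.9 and 9.89 TPM in siDerl1 samples, with no overlap but with near-equal values in pair 1, and the call was lost without siControl sample 3, siDerl1 sample 2 or siDerl1 sample 3. *Igf1*, the classical hepatic target of growth hormone and STAT5b, was at 8.02, 15.4 and 12.3 TPM in siControl and at 2.17, 8.97 and 8.10 TPM in siDerl1 samples. It was lower in each pair with overlapping groups, had an unadjusted p of 0.0785 from limma and passed the limits only with the block (adjusted p = 0.0822), without siDerl1 sample 2 or in samples 2 and 3 alone.

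*Mcl1*, a survival gene held by both target lists, was named after its values were seen. It was at 144, 149 and 140 TPM in siControl and at 116, 115 and 119 TPM in siDerl1 samples, so that the gap between the groups exceeded the spread in either. Its log2 difference was −0.30 (standard error 0.06), limma gave an adjusted p of 0.622, and its ratio of 0.809 was just outside the limit of 0.8. The most abundant genes of the list did not pass: *Id1*, *Akt1* and the cyclin gene *Ccnd1* had log2 differences of 0.16, 0.01 and −0.20. In the promoter windows, TTCNNNGAA was found in 4 of 24 windows of the STAT5 targets (16.7%) and in 3 of 17 of the STAT3 targets (17.6%), against 8.87% of all windows. Those of the STAT5 targets belong to *Bcl2l1*, *Prlr* and *Socs1*, of which *Bcl2l1* has 2 windows.

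Of the 17 STAT3 target genes tested, 1 passed the limits as well, again against 2.21% of all genes, with 11 genes higher, 6 lower and a median log2 difference of 0.19. That gene was *Gfap*, the intermediate filament of astrocytes and quiescent NSCs. It was at 47.0, 27.7 and 28.9 TPM in siControl and at 66.3, 47.5 and 45.3 TPM in siDerl1 samples. In both groups sample 1 was the highest, so the groups overlapped by siControl sample 1, yet all 3 pairs were higher in siDerl1. The log2 difference was 0.62 (standard error 0.23) and the adjusted p from limma 0.704. The call was lost without siControl sample 2, siControl sample 3 or siDerl1 sample 1. With the block the adjusted p of *Gfap* from limma was 0.0219 (standard error 0.08), and it alone of the 69 genes tested in the pathway lists was under 0.05, against 0.552% of all genes. It did not hold when the block was fitted to all genes unfiltered (adjusted p = 0.111) or without an intensity trend (adjusted p = 0.229). The most abundant genes of this list besides *Ccnd1* were *Myc*, with a log2 difference of 0.04, and *Vegfa*, with one of 0.43, and neither passed. *Cebpb* and *Cebpd*, transcription factors of the acute phase response, had log2 differences of 0.47 and 0.43 with overlapping groups, and neither passed the limits.

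The 5 genes whose profile over the 6 samples was most like that of *Stat5b* were *Usp31*, *Pcdhgc3*, *Dis3*, *Kpna6* and *Pcdh18*, among 9161 other genes with a mean of at least 5 TPM. Likeness was the root mean square difference of log2(TPM + 1) after each gene was centred on its own mean, and it was between 0.0411 for *Usp31* and 0.0840 for *Pcdh18*. *Pcdhgc3*, a clustered protocadherin, was at 80.4, 85.6 and 82.4 TPM in siControl and at 63.6, 60.3 and 60.5 TPM in siDerl1 samples, a ratio of 0.743 close to that of *Stat5b*. *Usp31*, a gene of the ubiquitin protease family, was at 8.93, 9.34 and 10.3 TPM in siControl and at 7.77, 6.57 and 6.98 TPM in siDerl1 samples. Among the members, *Cish* was the nearest to *Stat5b*, in place 39 with a difference of 0.107, and *Stat5a* came in place 1296. Since these genes were picked for a profile that includes the group difference of *Stat5b*, their own difference between the groups follows from the choice and is no separate result.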

How the data were processed

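For poly(A) RNA libraries the authors used Trimmomatic (0.39) for trimming, STAR (2.7.3a) for mapping to rn6 and RSEM (1.3.2) for estimating expression, per the labels and the study's methods. The authors deposited TPM with 2 decimals, summing to 1000000 in each sample. TPM keeps no read numbers, so depth is unknown here and counting error could not be computed. As shares of a fixed sum, TPM also move together when abundant genes change.

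Groups and numbers came from the sample labels. Nothing says that the samples were separate cultures, so p-values measure only the spread between these samples. Values were set to log2(TPM + 1), genes with a mean of at least 1 TPM were kept, and the groups were compared with limma (3.58.1, R 4.3.3; lmFit and eBayes with an intensity trend) with Benjamini-Hochberg adjustment over all 10331 genes. The limits were a ratio of mean TPM over 1.5 or under 0.8 with an unadjusted p under 0.05. The script was tested on simulated data. The members and lists were chosen with earlier results of these data known. Besides the 10 members and *Derl1*, genes were named when they passed the limits or an adjusted p under 0.05, with or without the block, when they were among the 3 most abundant of a list, or when they were the 5 most like *Stat5b*; the interferon-induced list was given by its sum and counts only, and other genes named were chosen after their values were seen. 

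The sample numbers were taken as pairs because deviations from the group means correlated, across genes that are not independent replicates, at 0.70 between both samples numbered 1, at 0.35 between those numbered 2 and at 0.51 between those numbered 3. Numbers 2 and 3 are hardly separated by this check, since siControl 2 with siDerl1 3 gave 0.34. Alternatives tried were no filter, a pseudocount of 0.1, a mean of at least 5 TPM, median-of-ratios scaling, no trend, the replicate block and each sample left out, and 3 more chosen after seeing the data. All 10 members matched the RefSeq table of GRCr8 by identifier; since the reads were mapped to rn6, that table gave names, gene order and promoter sequences only. Protein sequences were not used here, and a few listed genes are counted with their lists but not reported singly.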

Additional observations from a re-analysis of the deposited data

How the results depend on the processing

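*Stat5b* stayed below siControl and past the limits under all 15 alternatives, with a log2 difference between −0.50 and −0.37, and with 1 sample left out between −0.48 and −0.37. Its adjusted p from limma ranged from 0.0917, with the replicate block, to 0.996. Of the 146 values of the 10 members under the alternatives, 139 kept their direction and call and 7 changed sign. *Stat3* was at 0.00 with median-of-ratios scaling, at 0.0563 in samples 2 and 3 alone and between −0.11 and 0.10 with 1 sample left out. With 1 sample left out, *Jak1* ranged from −0.079 to 6e-04, *Jak2* from −0.149 to 0.0318, *Stat6* from −0.277 to 0.0481 (in 3 of the 6 cases, since in the others its mean was under 1 TPM and it was not tested) and *Stat2* from −0.138 to 0.790. The cause was not tested.

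The counts over all genes moved more. Genes called higher, 74 in the main comparison, numbered 158 without the filter, 30 at a mean of at least 5 TPM, 171 with the replicate block and between 59 and 118 with 1 sample left out. Genes called lower, 154 in the main comparison, numbered 266 with the block and between 125 and 262 with 1 sample left out. The block gave 57 genes with an adjusted p under 0.05, where there had been 0. The members past the limits remained 1 in number with the block and with each sample left out. Pathway genes past the limits numbered 5, between 3 and 9 with 1 sample left out, and 7 with the block; the ligands among them numbered 3, and between 1 and 3 with 1 sample left out.

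In the settings chosen after seeing the data, the block without a trend gave 177 higher, 305 lower and 0 genes with an adjusted p under 0.05, the block without a filter 272 higher, 331 lower, 9 pathway genes and 2 genes with an adjusted p under 0.05, and samples 2 and 3 alone 161 higher, 289 lower, 10 pathway genes and 35 genes with an adjusted p under 0.05. The 5 genes most like *Stat5b* were the same 5 with the other pseudocount and with a mean of at least 1 TPM. Since TPM keeps no depth, the counting error of the low members, *Stat6* and *Cish*, cannot be given.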

Other observations

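*Stat5b*, *Stat5a* and *Stat3* are consecutive protein-coding genes on rat chromosome 10 in the RefSeq gene order of GRCr8, so their neighbours were read after the values had been seen. *Ghdc*, on the *Stat5b* side, was at 22.98, 28.5 and 27.2 TPM in siControl and at 28.6, 28.3 and 24.6 TPM in siDerl1 samples, with a log2 difference of 0.05 (adjusted p = 0.955 from limma). *Atp6v0a1*, a subunit gene of the vacuolar proton pump on the *Stat3* side, was at 51.5, 63.0 and 61.6 TPM in siControl and at 50.1, 59.9 and 57.0 TPM in siDerl1 samples, with a log2 difference of −0.07 (adjusted p = 0.936). *Hcrt* was listed at 0. Of the genes read in this stretch, only *Stat5b* passed the limits, and the difference between *Stat5b* and its neighbours was not tested.

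*Cdkn2b*, a cyclin-dependent kinase inhibitor gene in the STAT5 target list, was also named after its values were seen. It was at 42.1, 40.2 and 42.6 TPM in siControl and at 35.6, 35.0 and 30.6 TPM in siDerl1 samples. The groups did not overlap, and its ratio of 0.810 was outside the limits (log2 difference −0.30, adjusted p = 0.704 from limma). *Cdkn1a*, another inhibitor gene of the list, went the other way in each pair, at 8.35, 14.1 and 14.4 TPM in siControl and at 13.8, 18.7 and 22.3 TPM in siDerl1 samples, with overlapping groups.

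*Egfr* was listed at 0 in all 6 samples, as were 13 of the 23 ligand genes read, *Prl*, *Osm* and *Il4* among them.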
